A study of Homo sapiens with 5 samples.

Results

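The genes described are the matrix metalloproteinases (MMPs), the membrane-anchored ADAM (a disintegrin and metalloproteinase) proteins, the secreted ADAMTS proteases and the tissue inhibitors of metalloproteinases (TIMPs) in NCI-H209, an established cell line from a human small cell lung cancer (SCLC). These families were chosen with earlier results of these data known. Their genes were then taken by symbol alone, as every gene named MMP, ADAM, ADAMTS or TIMP with a number in the deposited table of symbols. The rule found 56 of its 32793 entries, namely 18 MMP, 17 ADAM, 18 ADAMTS and 3 TIMP entries. They carry 55 symbols, because ADAM32 has a second entry without a position on the primary assembly. The libraries came from 3 control samples of untreated NCI-H209 cells and 2 samples of NCI-H209 cells co-cultured for 24 h with human brain microvascular endothelial cells (HBMECs), which sat on a Transwell insert and shared only the medium. All samples are 1 cell line grown in RPMI-1640 with serum, and the controls are described as parental cells with no endothelial partner. The presence of other cells and the factors of HBMECs therefore cannot be told apart. HBMECs were kept with Nu-serum in addition to fetal bovine serum, and the study does not name the medium of the co-culture. An effect of Nu-serum in the co-cultured wells cannot be told apart from these either. Because the labels do not say that the samples of a group were separate cultures, p-values measure the spread between these samples, which may be technical.

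MMPs and ADAMTS proteases cut proteins of the extracellular matrix, and ADAMs with a working catalytic center release the outer parts of membrane proteins such as growth factors, adhesion molecules and Notch. All are made as inactive precursors, and many, though not most secreted MMPs, are activated by furin-like convertases. TIMPs bind the active site and block it. Several ADAMs have lost the zinc-binding motif of the catalytic center and act as adhesion proteins or receptors, many of them in neurons or in sperm. In tumors the gelatinases and the membrane-anchored MMPs are best known for opening basement membranes, and at the blood-brain barrier for loosening the contacts of endothelial cells.

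The 5 libraries held 15457071 to 19157348 counts on the strand of the gene, and a count of 3, used as the floor for a single gene, equals 0.157 to 0.194 counts per 1000000 library counts (CPM). In such bulk samples fewer cells that express a gene and less RNA per cell cannot be told apart. The floor covers counting error only. Unmapped reads made up 8.13% to 8.48% of control libraries and 15.9% and 16.8% of co-cultured libraries. Control replicate 1 stood apart from the other controls on the second principal component, which held 18.3% of the variance. Of 14 neuroendocrine markers of SCLC, 13 could be tested, and their summed level was 2672 to 3185 CPM in control and 3715 and 3741 in co-cultured cells, while CHGA had 0 counts in 4 libraries and 1 in the other. Of 21 endothelial markers, 9 could be tested and 1, ESAM, rose. Their summed level was 10.4 to 21.7 CPM in control and 13.8 and 14.1 in co-cultured cells, and MMRN1, PLVAP and ECSCR had 0 counts in every library. Of 13 fibroblast and mural cell markers, 12 were tested, and 2 rose and 1 fell, where 18.4% of all tested genes rose and 15.0% fell. Their summed level was 38.6 to 42.8 CPM in control and 50.5 and 53.6 CPM in co-cultured cells, but the median over the 12 was -0.79 on the log2 scale. The lowest of the 12 was -3.57. At over 1 on the log2 scale with an unadjusted p under 0.05 (edgeR), 1 of the 12 was up and 4 were down. Of the 9 endothelial markers 1 was up and 1 down. Over all tested genes 5.44% were up and 5.01% down. In the controls FLT1, of the endothelial list, had 30, 28 and 0 counts, and PDGFRB and DCN, of the fibroblast and mural list, had 34, 30 and 0 and 27, 39 and 0. The part of these markers' cells in the results below was not tested.

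Which of these genes NCI-H209 cells express enough to be measured was asked first. Of the 56 entries, 27 passed the filter on low counts and 29 did not, and 18 of the 29 had at most 3 counts in every library. Among the ADAMs 13 of 17 entries were tested and all 3 TIMPs were, against 7 of 18 ADAMTS and 4 of 18 MMP entries. The 4 MMPs were MMP15, MMP16, MMP17 and MMP24, all of them held at the cell membrane. No secreted MMP was tested.

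The collagenases, gelatinases and stromelysins, the MMPs usually named in invasion, were close to absent from the counts. MMP2, a gelatinase, had 8, 2 and 1 counts in the controls against 5 and 4 after co-culture. MMP9, the other gelatinase, had 1, 1 and 2 counts in the controls against 3 and 5 after co-culture. MMP14, the main activator of MMP2 at the cell surface, had 8, 9 and 9 counts and 7 and 10 counts. None of these genes passed the filter, so no change in them was tested over the 5 libraries with it. The proteoglycan-cutting ADAMTS1, ADAMTS4, ADAMTS5, ADAMTS8 and ADAMTS9 had at most 3 counts in any library, as did ADAMTS2, ADAMTS7, ADAMTS12, ADAMTS16, ADAMTS19, ADAM21, ADAM33, MMP3, MMP10, MMP19, MMP21, MMP23A and MMP26. The other members below the filter were MMP1, MMP12, MMP13, MMP23B, MMP25, ADAM12, ADAMTS10 and the second entry of ADAM32, with at most 12 counts in a library. A further 14 genes of these families in the annotation, among them MMP7, MMP11, ADAMTS13 and TIMP4, are not in the deposited table of symbols. Of these 14, 1 had any read on its own strand, MMP28 with 1 count.

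For 19 of the 56 entries the libraries held more reads on the opposite strand than on the gene's own strand, and 18 of these 19 were among those not tested. MMP19 had 3 reads on its own strand over all 5 libraries and 474 on the other, where the annotation places exons of TMEM198B. MMP25 had 23 and 403, with MMP25-AS1 opposite. MMP21, ADAM21 and ADAMTS16 had 4, 6 and 7 reads on their own strand and 107, 138 and 140 on the other, with no annotated exon opposite theirs. Counted without strand, 10 more members would have entered the test, MMP9, MMP12, MMP21 and MMP25 among them, and 0 of the 10 were called by edgeR, with 2, ADAMTS8 and ADAM21, at an unadjusted p under 0.05. No other tool was run on the unstranded counts. Only TIMP3 was tested with most of its reads on the other strand.

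**Figure D1:**
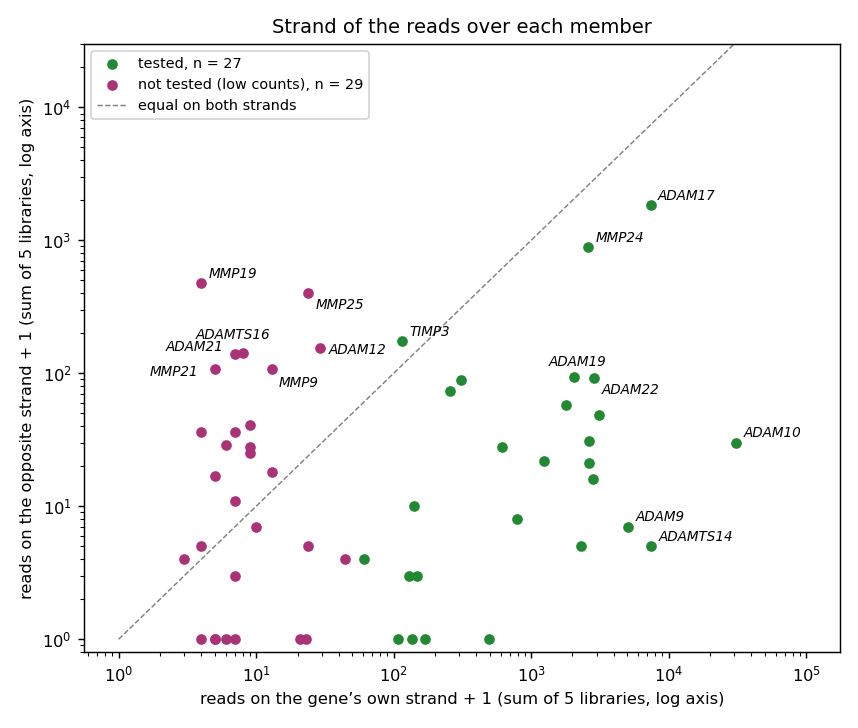
Reads on the gene's own strand (horizontal axis) and on the opposite strand (vertical axis) over each of the 56 entries, summed over the 5 libraries, with 1 added, on log axes. The 18 members above the dashed line among those not tested have more reads on the opposite strand, led by MMP19 with 474.

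Levels between genes were compared as TPM, which are counts divided by exon length and scaled to a sum of 1000000. ADAM10, a sheddase of Notch, amyloid precursor protein and cadherins, had the highest level in control with 84.1 ± 2.93 TPM (SD, n = 3), followed by ADAMTS14, a procollagen N-proteinase, with 65.1 ± 8.47 TPM (SD, n = 3). ADAM9 and ADAM17, 2 further sheddases, followed with 27.4 ± 2.56 and 26.3 ± 2.71 TPM (SD, n = 3), which did not differ beyond their spread. MMP24, also called MT5-MMP and known from neurons, was the highest MMP with 21.2 ± 1.02 TPM (SD, n = 3). TIMP2 was the highest inhibitor with 17.9 ± 1.42 TPM (SD, n = 3), TIMP1 stood at 5.99 ± 2.38 and TIMP3 at 0.726 ± 0.305 TPM (SD, n = 3). In co-cultured cells ADAM10 and ADAMTS14 were still the 2 highest, at 58.8 ± 0.521 and 37.4 ± 2.84 TPM (SD, n = 2). ADAMTS18 went from 4.88 ± 3.23 TPM (SD, n = 3) to 19.0 ± 3.04 TPM (SD, n = 2), a level like that of ADAM15 in the same cells, 19.1 ± 0.217 TPM (SD, n = 2).

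**Figure D2:**
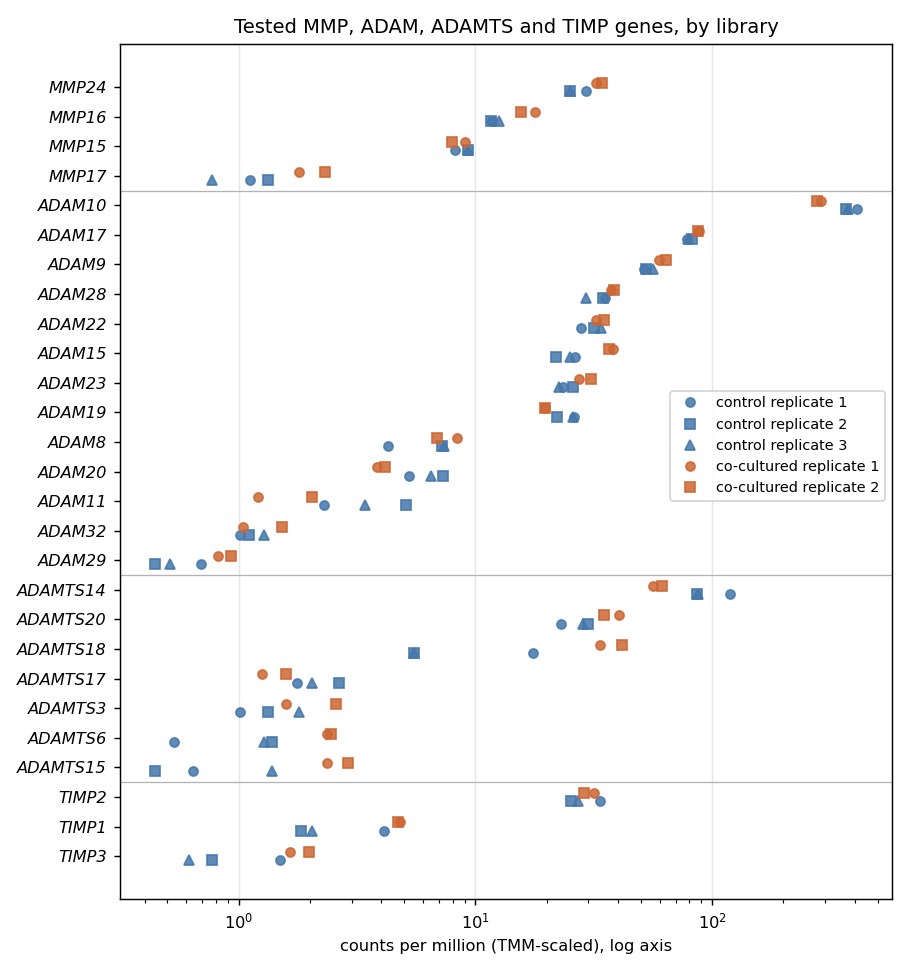
CPM of the 27 tested genes in each library (horizontal log axis), sorted by family and mean, with control in blue and co-cultured in orange and a symbol for each replicate number. ADAM10 is the highest throughout, and the blue circle of control replicate 1 lies near the orange symbols for TIMP1 and TIMP3.

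The comparison between co-cultured and control cells then asked which of these genes differ in cells grown with endothelial cells. At an adjusted p under 0.05 (quasi-likelihood test of edgeR, Benjamini-Hochberg over 20360 genes), 7 of the 27 tested members were higher and 4 were lower in co-cultured cells. Over all genes tested the shares were 18.4% higher and 15.0% lower, and among the members they were 25.9% and 14.8%. The median log2 fold change was 0.28 for the 27 members and -0.03 for all genes tested. Both co-cultured libraries lay above all controls for 15 members, where 29.4% of all genes did, and below them for 6, where 30.0% did. The study's methods give an absolute fold change over 1 and p under 0.05 as their criterion, read here as a log2 scale and an unadjusted p. By that reading, 3 members were upregulated (background 5.44%) and 1 was downregulated (background 5.01%). The upregulated members were ADAMTS18, ADAMTS15 and ADAMTS6, and the downregulated member was ADAM11. Without control replicate 1 the members called were 13 higher and 5 lower, and fewer than in the main fit were called without either co-cultured library. The shares of all genes called in these fits are not given here. A change in the members therefore cannot be told apart from a change in calling over all genes.

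**Figure D3:**
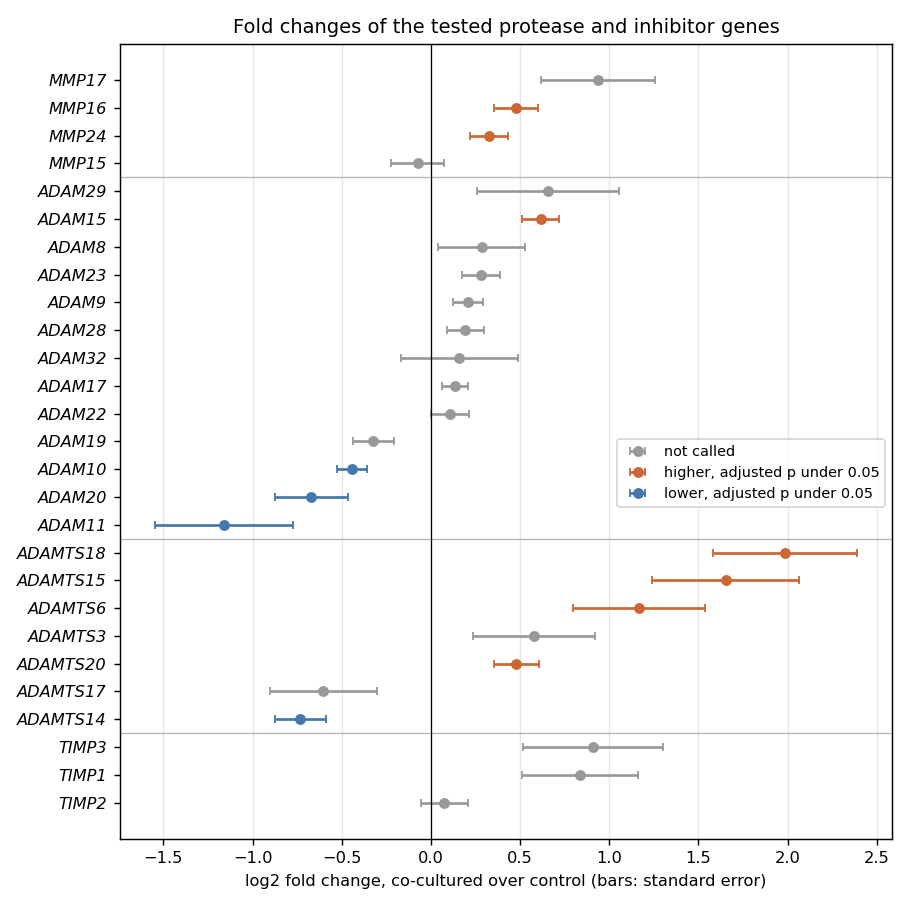
Difference between co-cultured and control cells on the log2 scale (horizontal axis) with its standard error for the 27 tested genes, in blocks of MMP, ADAM, ADAMTS and TIMP genes. Orange marks the 7 genes higher and blue the 4 lower at an adjusted p under 0.05, and the 3 largest rises are those of ADAMTS18, ADAMTS15 and ADAMTS6.

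The 3 largest rises were in the ADAMTS family, with 4 of its 7 tested genes higher and 1 lower. Of all genes tested, 18.4% were higher and 15.0% lower. ADAMTS18 (ENSG00000140873.15, GRCh38 chromosome 16, 77247813 to 77435114), a secreted protease without a settled substrate, had 17.5, 5.47 and 5.48 CPM in the controls against 33.7 and 41.5 after co-culture. Control replicate 1 was about 3 times as high as the other controls, yet both co-cultured libraries lay above it. The log2 fold change was 1.98 (standard error, SE, 0.41, edgeR adjusted p = 0.00556), a 3.96-fold rise. Without control replicate 1 it was 2.78 (edgeR adjusted p = 3.82e-10), and without co-cultured replicate 2 it was 1.83 (edgeR adjusted p = 0.0596). ADAMTS15 (ENSG00000166106.3, chromosome 11, 130448974 to 130476641), a versican-cutting enzyme, rose from 0.821 ± 0.496 to 2.63 ± 0.393 CPM (SD, n = 3 and 2), with 12, 8 and 27 counts in the controls against 43 and 44 after co-culture. Its log2 fold change was 1.65 (SE 0.41, edgeR adjusted p = 0.0140), and 2.26 without control replicate 3, the source of 27 of those reads. It was not called with co-cultured replicate 1 (edgeR adjusted p = 0.0695) or 2 (edgeR adjusted p = 0.114) left out.

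ADAMTS20, another versican-cutting enzyme, rose more modestly, from 22.9, 29.9 and 28.5 CPM in control to 40.4 and 35.0 in co-cultured libraries. Its log2 fold change was 0.48 (SE 0.13, edgeR adjusted p = 0.0188), and its adjusted p was 0.194 and 0.0562 (edgeR) without co-cultured replicates 1 and 2. ADAMTS6, a relative of the fibrillin-binding ADAMTS10, had 10, 25 and 25 counts in the controls against 43 and 37 after co-culture, 1.17 on the log2 scale (SE 0.37, edgeR adjusted p = 0.0376). Its control replicate 1 was the low one, and leaving it out gave 0.85. The adjusted p was 0.0511, 0.165 and 0.167 (edgeR) without control replicate 3 and without co-cultured replicates 1 and 2. ADAMTS6 was also not called by DESeq2 (adjusted p = 0.0531), with upper-quartile scaling (edgeR adjusted p = 0.0527) or with opposite-strand reads subtracted (edgeR adjusted p = 0.0559). The groups of both genes did not overlap.

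ADAMTS14 (ENSG00000138316.10, chromosome 10, 70672803 to 70762441), which removes the N-propeptide of fibrillar procollagens, was the member of the family that fell. It had 119, 85.9 and 86.9 CPM in the controls against 56.1 and 61.2 after co-culture, so that every control lay above both co-cultured libraries. The fall was 1.66-fold, -0.73 on the log2 scale (SE 0.14, edgeR adjusted p = 0.00456), with an adjusted p of 0.0673 (edgeR) without co-cultured replicate 1. ADAMTS3, a procollagen N-proteinase as well, had 19, 24 and 35 counts in the controls against 29 and 39 after co-culture, with overlapping groups and a log2 fold change of 0.58 (edgeR adjusted p = 0.227). ADAMTS17 had a log2 fold change of -0.60 (edgeR adjusted p = 0.152) at 23 to 48 counts per library.

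The promoters of ADAMTS18 (the largest rise), ADAMTS14 (the ADAMTS gene that fell), ADAM15 (the call that held in every alternative) and TIMP1 (an inhibitor) are shown so that their base composition can be read next to these values. Each runs from 250 bases before to 50 after the start that RefSeq gives on GRCh38.p14, on the strand of the gene. Capitals mark exact matches, on either strand, to 4 motifs: the AP-1 site (TGACTCA or TGAGTCA), the core of the hypoxia response element (ACGTG or GCGTG), the GC box (GGGCGG) and the TATA box (TATAAA). ADAMTS18 lies at chr16:77434985-77435284 (minus strand), ADAMTS14 at chr10:70672256-70672555 (plus), ADAM15 at chr1:155051066-155051365 (plus) and TIMP1 at chrX:47582186-47582485 (plus).
ADAMTS18: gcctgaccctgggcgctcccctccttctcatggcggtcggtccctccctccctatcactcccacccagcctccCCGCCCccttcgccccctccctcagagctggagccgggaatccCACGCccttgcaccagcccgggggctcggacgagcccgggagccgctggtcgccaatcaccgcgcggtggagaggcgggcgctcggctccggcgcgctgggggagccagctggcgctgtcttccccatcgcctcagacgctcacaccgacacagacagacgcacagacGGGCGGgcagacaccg
ADAMTS14: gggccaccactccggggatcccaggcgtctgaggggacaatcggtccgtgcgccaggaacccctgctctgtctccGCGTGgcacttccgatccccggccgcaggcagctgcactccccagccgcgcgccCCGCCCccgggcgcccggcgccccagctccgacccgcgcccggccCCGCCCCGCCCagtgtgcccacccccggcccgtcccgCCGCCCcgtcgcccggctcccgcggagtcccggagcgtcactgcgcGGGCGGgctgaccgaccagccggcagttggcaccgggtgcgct
ADAM15: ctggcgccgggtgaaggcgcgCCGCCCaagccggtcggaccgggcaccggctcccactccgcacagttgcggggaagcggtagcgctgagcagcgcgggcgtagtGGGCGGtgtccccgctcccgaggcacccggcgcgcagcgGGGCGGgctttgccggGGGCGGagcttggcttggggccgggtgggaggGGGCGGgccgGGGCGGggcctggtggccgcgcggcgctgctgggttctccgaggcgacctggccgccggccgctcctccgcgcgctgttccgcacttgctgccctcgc
TIMP1: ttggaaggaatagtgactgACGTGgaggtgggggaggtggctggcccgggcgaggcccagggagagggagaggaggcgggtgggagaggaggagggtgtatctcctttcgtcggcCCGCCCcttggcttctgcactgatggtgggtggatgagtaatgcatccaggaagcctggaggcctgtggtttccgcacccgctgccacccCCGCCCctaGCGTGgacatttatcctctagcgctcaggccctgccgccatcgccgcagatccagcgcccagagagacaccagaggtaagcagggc

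All 4 windows hold GC boxes, ADAM15 the most with 6, and 2 of those in ADAMTS14 overlap by a base. The promoter table holds 31 of the 55 member symbols in 32 windows. MMP1, MMP2, MMP3, MMP9, MMP12 and MMP13 are among the symbols without a window, so the counts below leave them out. GC boxes were in 23 of the 32 windows (71.9%) against 45.0% of all 35116 windows, and the hypoxia core in 17 (53.1%) against 48.4%. No member window held the AP-1 letters, which 4.95% of all windows do. The TATA letters were in 0 of 19 windows of tested members and in 5 of 13 of members not tested, against 11.5% of all. Median GC content was 72.7% in the first and 67.0% in the second, and 58.7% over all windows. A match is only a run of letters in a short window.

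Of the 4 membrane-anchored MMPs tested, 2 rose, where 18.4% of all genes tested did. MMP16, or MT3-MMP, had 11.7, 11.6 and 12.6 CPM in the controls against 17.8 and 15.5 after co-culture. The controls lay close together and below both co-cultured libraries. The log2 fold change was 0.48 (SE 0.12, edgeR adjusted p = 0.0165), and leaving out 1 library at a time gave an adjusted p of 0.00442 to 0.169, with no call without control replicate 2 (0.0553), co-cultured replicate 1 (0.169) or co-cultured replicate 2 (0.0526), all by edgeR. MMP24 had 29.4, 25.0 and 25.2 CPM in the controls against 32.3 and 34.2 after co-culture, 0.33 on the log2 scale (SE 0.11, edgeR adjusted p = 0.0420). This was the smallest called rise, and 25.5% of the reads over MMP24 lay on the opposite strand, where MMP24OS is annotated. With those reads subtracted its adjusted p was 0.130, and it was called in 4 of 13 alternatives, by leaving out control replicate 1 (edgeR adjusted p = 0.000843) but no other library.

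MMP17, an MMP with a lipid anchor, lay just outside the threshold with 21, 24 and 15 reads in the controls against 33 and 35 after co-culture (log2 difference 0.94, edgeR adjusted p just above 0.05). Its groups did not overlap. MMP15 was not called, with 8.93 ± 0.646 CPM (SD, n = 3) in the controls against 8.47 ± 0.772 (SD, n = 2) after co-culture and -0.07 on the log2 scale (SE 0.15, edgeR adjusted p = 0.736).

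Among the ADAMs, 1 of 13 tested genes rose and 3 fell, where 18.4% of all genes tested rose and 15.0% fell. ADAM15 (ENSG00000143537.13, chromosome 1, 155050566 to 155062775), a catalytic ADAM whose disintegrin domain binds integrins, had 26.21, 21.95 and 25.14 CPM in the controls against 38.10 and 36.73 after co-culture. Both groups were tight and far apart. The rise was 1.53-fold, 0.61 on the log2 scale (SE 0.10, edgeR adjusted p = 0.00225). ADAM15 was the 1 member called under all 13 alternatives, including with each library left out (edgeR adjusted p at most 0.0363).

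ADAM10 (ENSG00000137845.14, chromosome 15, 58588807 to 58749978), the most abundant member, fell. It had 410.1, 367.4 and 375.2 CPM in the controls against 287.4 and 278.1 after co-culture, -0.44 on the log2 scale (SE 0.083, edgeR adjusted p = 0.00377) or 1.36-fold. Each control lay well above both co-cultured libraries, and the adjusted p was 0.0697 (edgeR) without co-cultured replicate 2. ADAM17, the closest relative of ADAM10 and the sheddase of tumor necrosis factor and ligands of the epidermal growth factor receptor, had 78.3, 81.9 and 78.9 CPM in the controls against 88.0 and 86.9 after co-culture. Its groups did not overlap, but the log2 fold change of 0.13 (standard error 0.073) had an adjusted p of 0.188 (edgeR), and 19.9% of the reads over it lay on the opposite strand, where the gene IAH1 overlaps it.

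ADAM20, a catalytic ADAM known from testis, fell from 5.26, 7.30 and 6.50 to 3.83 and 4.16 CPM, -0.67 on the log2 scale (SE 0.20, edgeR adjusted p = 0.0318). Of the leave-one-out fits it was called only without control replicate 1 (edgeR adjusted p = 0.00210), and the others gave 0.0849 to 0.201. It lies beside ADAM21, a near relative with at most 2 counts per library, and reads shared by such relatives may be lost in counting. ADAM11, a neuronal ADAM without the catalytic motif, had 43, 92 and 67 counts in the controls against 22 and 31 after co-culture. The log2 fold change was -1.16 (SE 0.39, edgeR adjusted p = 0.0449), with 22.3% of its reads on the opposite strand, and the adjusted p was 0.0715 with those subtracted and 0.0512 with unstranded counts. It too was called only without control replicate 1 among the leave-one-out fits (edgeR adjusted p = 0.00108), and the others gave 0.0783 to 0.311.

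Beside ADAM17, 8 tested ADAMs were not called. ADAM9, ADAM23 and ADAM28 had log2 fold changes of 0.21, 0.28 and 0.19, and both co-cultured libraries of each lay above all controls, with adjusted p-values of 0.0807, 0.0728 and 0.185 (edgeR). ADAM19 averaged 24.7 ± 2.32 CPM (SD, n = 3) in the controls and 19.7 ± 0.0326 CPM (SD, n = 2) after co-culture, -0.32 on the log2 scale (SE 0.11, edgeR adjusted p = 0.0555). ADAM22, which with ADAM23 serves as a receptor for the LGI proteins of synapses, had 0.10 on the log2 scale (SE 0.11, edgeR adjusted p = 0.483), and the same fit gave 0.28 for ADAM8 (adjusted p = 0.399), 0.66 for ADAM29 (adjusted p = 0.237) and 0.16 for the primary entry of ADAM32 (adjusted p = 0.741). ADAM12, a catalytic ADAM of muscle and placenta, had 4, 3 and 2 counts in the controls against 12 and 7 after co-culture and did not pass the filter.

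None of the 3 inhibitors was called in the main edgeR fit, and 2 of them had an unadjusted p under 0.05, with 0 called by DESeq2 as well. With 1 count in any library as the filter, edgeR called TIMP1 (adjusted p = 0.00514) and TIMP3 (adjusted p = 0.0480). At nearly unchanged fold changes, this filter took the edgeR adjusted p of ADAMTS18 from 0.00556 to 2.67e-44. For ADAM9 it went from 0.0807 to 0.179. The p-values under this filter are therefore not comparable with those of the main fit. TIMP1 was called in 2 of 13 alternatives, TIMP3 in 2 of 12 and TIMP2 in 0 of 13. TIMP1 (ENSG00000102265.11, chromosome X, 47582313 to 47586789) had 4.09, 1.82 and 2.05 CPM in the controls against 4.81 and 4.69 after co-culture. Both co-cultured libraries were above every control, but control replicate 1 lay near them and far from the other controls. Over all libraries the log2 fold change was 0.84 (SE 0.32, edgeR adjusted p = 0.0758), and without control replicate 1 it was 1.29 (edgeR adjusted p = 0.000230). TIMP3, the inhibitor that binds to matrix and also blocks ADAM10 and ADAM17, had 28, 14 and 12 counts in the controls against 30 and 30 after co-culture. Its log2 fold change was 0.91 (SE 0.39, edgeR adjusted p = 0.106), and 1.37 without control replicate 1 (edgeR adjusted p = 0.00473), but 60.4% of the reads over TIMP3 lay on the opposite strand. Counted without strand, TIMP3 had a log2 fold change of 0.23 (edgeR adjusted p = 0.603), and with those reads subtracted it did not pass the filter. The opposite-strand share of TIMP1, which lies inside SYN1 on the other strand, was 22.2%. TIMP2, with 33.4, 25.3 and 27.0 CPM in the controls against 31.6 and 28.6 after co-culture, had overlapping groups and 0.07 on the log2 scale (SE 0.13, edgeR adjusted p = 0.694).

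**Figure D4:**
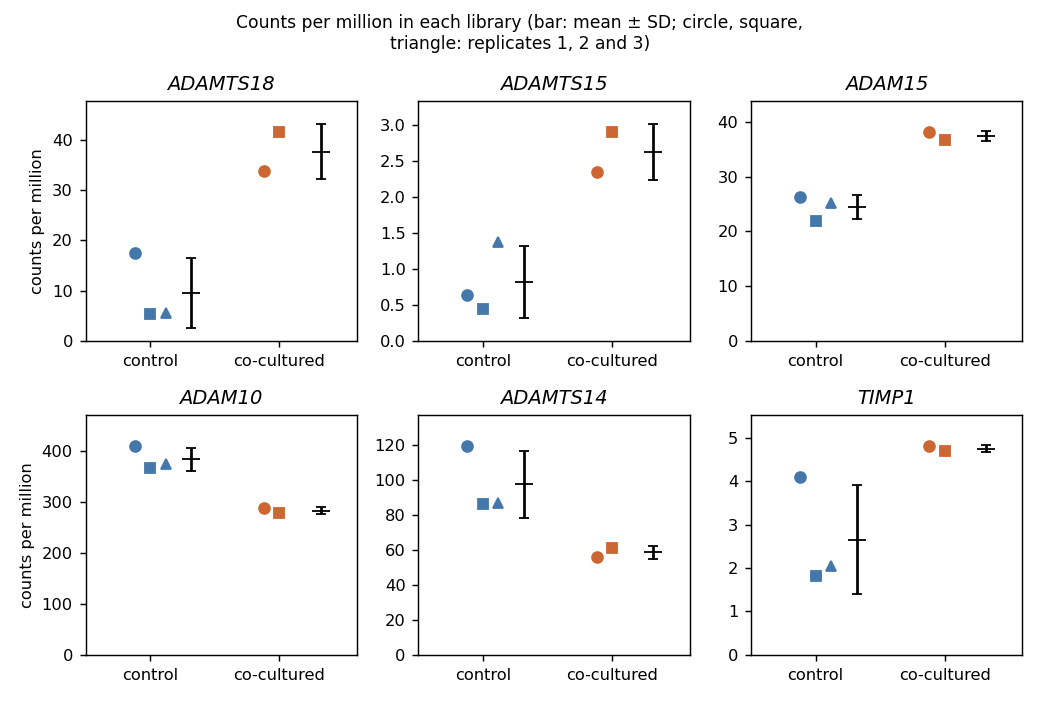
CPM of 6 members in each library (vertical axes start at 0), with the mean and SD of each group beside the points. Both co-cultured libraries lie above all controls for ADAMTS18, ADAMTS15, ADAM15 and TIMP1 and below them for ADAM10 and ADAMTS14, and control replicate 1 (circle) is the highest control for ADAMTS18 and TIMP1.

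Genes that act with these proteases were read from 8 lists of 88 genes in all. Of the 65 that were tested, 24 were higher (36.9%) and 9 lower (13.8%), beside 18.4% and 15.0% of all genes. The lists were chosen with earlier results of these data known, so these shares are descriptive and were not tested. Of 19 tested membrane proteins that ADAMs shed, 11 rose and 1 fell, and the median difference over the 19 was 0.48 on the log2 scale. The smallest p-values were those of the proteoglycan SDC1, the adhesion molecule ALCAM and the Notch ligand JAG1, with log2 fold changes of 1.28, 1.10 and 1.39 (edgeR adjusted p at most 0.000204), and 24.3% of the reads over JAG1 lay on the opposite strand. NOTCH1, a substrate of ADAM10, was the 1 that fell, from 158, 121 and 77 counts in control to 48 and 36 in co-cultured libraries (log2 fold change -1.34, edgeR adjusted p = 0.0119). Of the reads over NOTCH1, 17.1% lay on the opposite strand, with 60, 29 and 1 in the controls against 1 and 0 after co-culture.

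Among 18 tested matrix substrates, 6 were higher and 5 lower, where 18.4% of all genes tested were higher and 15.0% lower. VCAN, the versican that ADAMTS15 and ADAMTS20 cut, had 45, 24 and 23 counts in the controls against 125 and 128 after co-culture, 2.22 on the log2 scale (SE 0.29, edgeR adjusted p = 0.000580). FN1 and NID1 rose by 1.30 and 1.04 on the log2 scale, though 63.9% of the reads over FN1 lay on the opposite strand. Lower were RELN, COL4A2, HSPG2, COL4A1 and FBN1, with log2 fold changes from -1.01 to -0.40, and 38.8% of the reads over RELN were on the opposite strand. Of the fibrillar procollagens that ADAMTS14 trims, COL1A1, COL1A2 and COL3A1 had overlapping groups and were not called. Control replicate 3 was low for them, as for FLT1 and PDGFRB, with COL1A2 at 33, 23 and 3 counts and COL3A1 at 22, 22 and 3 counts in the controls.

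FURIN, the convertase that activates many of these precursors, rose from 931, 935 and 894 counts to 1845 and 1632, 1.09 on the log2 scale (SE 0.083, edgeR adjusted p = 5.0e-05), and PCSK7, the other tested convertase, was not called. Of 9 tested partners of ADAM17 and ADAM10, namely iRhoms with their binding protein FRMD8 and TspanC8 tetraspanins, 4 were higher and 0 lower. The shares for this and the lists below are, over all genes tested, 18.4% higher and 15.0% lower. TSPAN15, TSPAN17 and TSPAN5 had log2 fold changes of 0.49, 0.62 and 0.71, and the fourth was RHBDF1, over which 38.9% of reads lay on the opposite strand. Of 6 tested inhibitors outside the TIMPs 1 fell, PAPLN, by 0.63 on the log2 scale, and RECK, which restrains several MMPs at the membrane, had a log2 fold change of -0.03 (edgeR adjusted p = 0.910). Of 5 tested ADAMTS-like proteins, which lack the protease domain, ADAMTSL2 and ADAMTSL4 fell by 0.89 and 1.03 on the log2 scale and THSD4 rose by 0.38, with 59.2% of the reads over ADAMTSL4 on the opposite strand. Of 5 other metzincins tested 1 was higher, PAPPA2, and the 1 tested LGI ligand, LGI2, was not called.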

How the data were processed

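RNA of NCI-H209 cells was depleted of rRNA and made into directional libraries. The authors deposited raw counts per gene for 5 libraries (3 control, 2 co-cultured), in the layout of STAR gene counting. The submitters' processing notes name STAR 2.6.1b, CASAVA 1.8, DESeq2 and GRCh38. Counts of the strand of the library (column 4) were used, and the rows that name no gene (66.4% to 69.3% of reads, unmapped reads included) were left out. The authors' table of their comparison was read for symbols only. Its means, fold changes, standard errors, statistics and p-values were not used.

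Low genes were dropped with filterByExpr, library sizes were scaled by TMM, and groups were compared by the quasi-likelihood test of edgeR 4.0.16 (R 4.3.3). All 5 libraries entered 1 fit, and Benjamini-Hochberg adjustment was over 20360 genes. The fit was also run on simulated counts drawn from its own dispersion estimates. Such counts cannot show how it handles a library that stands apart from its group. Standard errors are the log2 fold change over the square root of F. TPM used the union of exons in GENCODE release 29. No 2 libraries of a group were alike within counting noise (chi-square per degree of freedom at least 4.37). An exact permutation test of 3 against 2 libraries has 0.1 as its smallest p.

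The members and lists were chosen with earlier results of these data known. Each member is accounted for, with full values for those called at a mean of at least 1 CPM and for the TIMPs. Of each list up to 3 called genes with the smallest p are named. ADAM12, MMP2, MMP9, MMP14 and the other low-count genes, and NOTCH1, RELN, COL4A2, HSPG2, COL4A1, FBN1, the procollagens, RHBDF1, PCSK7, RECK and LGI2 were named after their values were seen. Protein sequences were not used here. The alternatives were upper-quartile or median-ratio scaling, DESeq2 1.42.0, filters of 1 count in any or 10 in every library, unstranded counts, opposite-strand counts subtracted, a replicate block and each library left out. Plots were drawn with matplotlib 3.10.9.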

Additional observations from a re-analysis of the deposited data

How the results depend on the processing

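With each library left out in turn, the members called higher ran from 1 to 13 and those called lower from 1 to 5. The members downregulated at the criterion of over 1 on the log2 scale with an unadjusted p under 0.05 ran from 0 to 1, and the genes of the 8 lists called ran from 13 to 28 higher and from 3 to 13 lower. A fit without a co-cultured library assumes that the lone one varies like the controls. The shares of all genes called with a library left out are not given beside these counts. With 1 count in any library as the filter, 5 members were upregulated at the criterion. The other settings kept these counts within 1.5 times. The direction changed for 3 uncalled members: TIMP2 (-0.0018 on the log2 scale under upper-quartile factors, and -0.0016 to 0.21 with each library left out), MMP15 (-0.16 to 0.018) and ADAM32 (-0.12 to 0.43). No called member changed direction.

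Replicate numbers did not pair the samples: deviations of same-numbered libraries correlated at -0.11 and -0.067. With the replicate block, 5 members were higher and 3 lower, and MMP16, ADAM20 and MMP24 were not called.

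DESeq2 called 9 members, all among the 11 of edgeR. The 29 members below the filter were tested only under the filters and counts that let them in.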

Other observations

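The 5 MMP genes of the cluster on chromosome 11 between 102770503 and 102955734 (MMP1, MMP3, MMP10, MMP12 and MMP13, secreted proteases) together had 6, 2 and 0 reads on their own strand in the controls against 14 and 15 after co-culture. This sum was chosen after the values were seen and was not tested. On the opposite strand the same genes had 11, 42 and 40 reads in the controls against 19 and 14 after co-culture. MMP13, a collagenase, had 1, 1 and 0 reads in the controls against 4 and 6 after co-culture, and MMP1, another collagenase, had 2, 0 and 0 against 4 and 3.

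Without a filter beyond 1 count in any library, 0 of the 29 members not tested had an adjusted p under 0.05 by edgeR. Of these, 2 had an unadjusted p under 0.05, ADAM12 (edgeR adjusted p = 0.0507) and MMP13 (edgeR adjusted p = 0.0629). As for the TIMPs, p-values under this filter are not comparable with those of the main fit.

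Of the 18 members called without control replicate 1, 11 were those called over all libraries. The share of all genes called in that fit is not given here. The 7 added were MMP17, ADAM9, ADAM19, ADAM23, ADAM28, TIMP1 and TIMP3.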
